A study of Bos taurus with 8 samples.

Results

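The genes described here encode the subcortical maternal complex of the oocyte and the oocyte members of the NLRP family. They were chosen by gene symbol from a list of 10 names, NLRP5, OOEP, TLE6, PADI6, KHDC3L, NLRP2, NLRP8, NLRP9, NLRP13 and NLRP14, out of 26804 genes in the table. A single row was found for each of 9 members, with no copies, and NLRP2 was not analysed here because no row carries that symbol. The oocytes came from non-pregnant, dry, multiparous beef cows (Angus in the labels, Bos taurus crossbreeds in the study's methods). They were synchronised with a progesterone device and a GnRH analog and stimulated with FSH before follicle aspiration. The same herd was aspirated in summer (August) and in winter (January in the labels, February in the study's methods), and every cow received the same hormones in both sessions. Denuded germinal vesicle oocytes from grade 1 and 2 complexes were pooled, RNA of a pair of cows making up 1 library, which gave 4 summer libraries (A, B, C and E) and 4 winter libraries (A, B, D and E). Each season was a single session, so season and session cannot be told apart. The study reports that the grades of the recovered oocytes differed between seasons, the best grade being a smaller proportion in summer. The mix of grades within each pool is not given, so season and grade cannot be told apart either.

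The subcortical maternal complex is a protein assembly beneath the egg membrane that is built during oocyte growth and persists in the early embryo. In the mouse, NLRP5 (also called MATER), TLE6 and OOEP (FLOPED) form its core and the KHDC3L counterpart FILIA binds to it, and females that lack a core component produce embryos that arrest at the first cleavages. PADI6 is needed for the cytoplasmic lattices, fibres in which the egg stores maternal proteins. The oocyte NLRP proteins resemble the NLRP proteins of inflammasomes, which sense danger signals in immune cells, but belong to a branch of the family expressed mainly in germ cells.

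All 9 members had higher mean transcript levels in summer oocytes than in winter oocytes, and 7 passed the test: NLRP5, TLE6, OOEP, KHDC3L, PADI6, NLRP9 and NLRP14. Levels are given as TPM, transcripts per 1000000 with a correction for transcript length, and a percent of TPM is a percent of 1000000. A difference is the mean of log2(TPM + 1) in summer less that in winter, so that 1 stands for a 2-fold difference, and a gene was called when its adjusted p was under 0.05 and its difference at least 1 (limma, 13379 genes tested). Among all tested genes 4.4% were called higher by this rule and 5.17% lower, and among genes with a mean from 100 to 1000 TPM, where most members lie, 7.82% were called higher. No member was called lower. The median difference was 1.12 over the 9 members and -0.03 over all tested genes. With no fold limit 8 of the 9 members had an adjusted p under 0.05 in the higher direction, against 14.9% of all tested genes. The 4 summer libraries all lay above the 4 winter libraries for the same 8 genes, NLRP13 being the exception, against 15.4% of tested genes. A smaller part of oocyte RNA in a library and less member RNA per oocyte cannot be told apart in pooled samples.

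**Figure D1:**
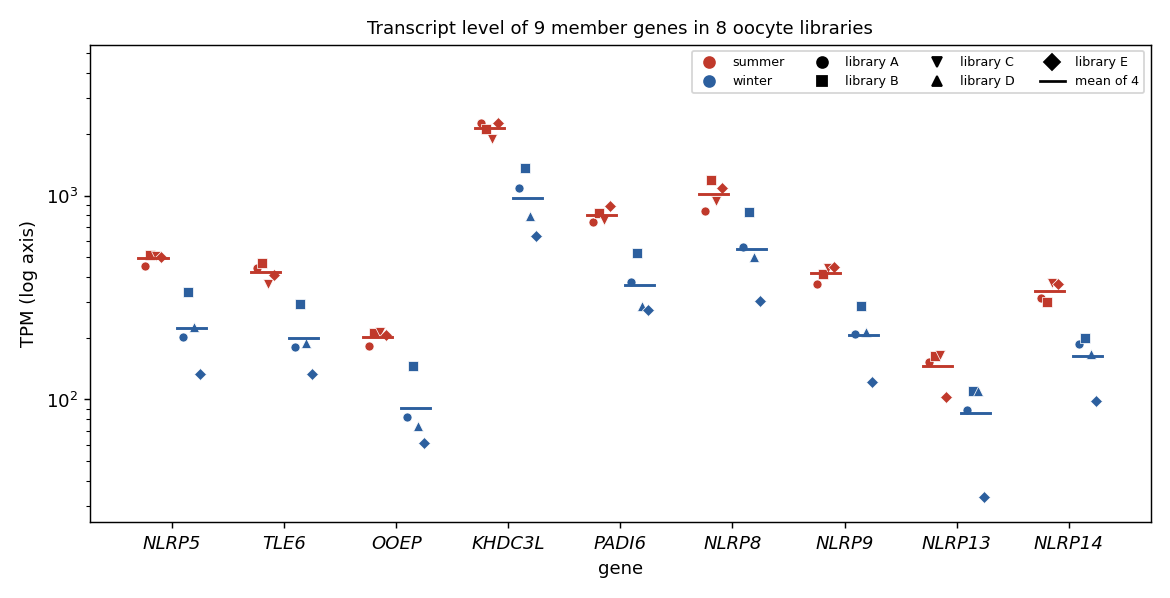
Transcript level (TPM, log axis) of the 9 members in each of 4 summer (red) and 4 winter (blue) libraries, the marker shape giving the library letter and the bar the mean of 4. KHDC3L is the highest in both seasons, winter E is the lowest winter library for all 9 genes, and the seasons overlap for NLRP13 only.

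Beginning with the core of the complex, NLRP5, the large scaffold protein with leucine-rich repeats, stood at 451, 514, 508 and 502 TPM in summer A, B, C and E and at 203, 335, 226 and 134 TPM in winter A, B, D and E. The summer libraries were close to each other and the winter libraries were spread widely, with winter B highest and winter E lowest. The season means were 494 ± 29.2 TPM and 224 ± 83.3 TPM (SD, n = 4 each), and the difference was 1.21 (SE 0.23, adjusted p = 0.00703, limma). TLE6, a divergent relative of the Groucho corepressors, was measured at 443, 467, 367 and 408 TPM in the same summer order and at 182, 296, 189.9 and 134 TPM in winter. Its lowest summer library, C, was above its highest winter library, B. The difference was 1.12 (SE 0.21, adjusted p = 0.00692, limma). OOEP, a small protein with an RNA-binding KH-like domain, held 183, 211, 213 and 207 TPM in summer and 82.3, 146, 74.0 and 60.9 TPM in winter. It showed the largest difference of the 9 members, 1.23 (SE 0.23, adjusted p = 0.00682, limma), although the other differences lay within its standard error except those of NLRP8 and NLRP13.

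KHDC3L, the KH-domain partner of the core, had by far the most abundant transcript of the group. It reached 2269, 2110.4, 1899.8 and 2262 TPM in the summer libraries and 1088, 1372, 792 and 633 TPM in the winter libraries, so the lowest summer value lay well above the highest winter value. By mean level KHDC3L ranked 36th of all genes in summer and 146th in winter, and its difference was 1.19 (SE 0.23, adjusted p = 0.00692, limma). PADI6, a member of the peptidylarginine deiminase family, was measured at 743, 823, 759 and 887 TPM in summer and 378, 525, 289 and 274 TPM in winter. Here winter D and winter E were both low. The difference was 1.18 (SE 0.20, adjusted p = 0.00539, limma), the smallest p of the 9 members.

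Among the remaining NLRP genes, NLRP14 and NLRP9 rose and NLRP8 and NLRP13 did not pass. NLRP14, which in mice is required for early embryos, stood at 314, 301, 374 and 368 TPM in summer and 187, 201, 168 and 98.7 TPM in winter (difference 1.09, SE 0.21, adjusted p = 0.00722, limma). NLRP9, an oocyte NLRP whose mouse copies are several, was at 368, 411, 439.7 and 448 TPM in summer and 209, 287, 214 and 122 TPM in winter (difference 1.06, SE 0.22, adjusted p = 0.00945, limma). Both genes kept the seasons apart in every library. NLRP8, the most abundant NLRP transcript, was at 838, 1195, 943 and 1095 TPM in summer and 557, 827, 501 and 304 TPM in winter. The lowest summer library and the highest winter library nearly touched, and NLRP8 missed the 2-fold limit at 0.97 (SE 0.26, adjusted p = 0.0230, limma). NLRP13 was the least abundant member, at 153, 163, 164 and 103 TPM in summer and 89.2, 110.3, 109.9 and 33.2 TPM in winter. Summer E fell below winter B and winter D, and the difference of 0.88 was not called (SE 0.34, adjusted p = 0.0803, limma). Its 95% interval ran from 0.12 to 1.64, so a difference as large as that of the called genes lies within it. The reads of related NLRP genes can be shared where their sequences are alike, and how the authors' counting divided such reads is not stated.

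Of the single libraries, winter E, which had the least member RNA, moved the number of calls most. Without winter E the median difference was 0.95 and 3 members stayed called, OOEP (1.07), PADI6 (1.05) and KHDC3L (1.01), while NLRP5 (0.99), TLE6 (0.95), NLRP9 (0.83) and NLRP14 (0.87) fell short of the limit with adjusted p up to 0.0128 (limma). Without any other single library 7 or 8 members were called, NLRP8 being the gene added. No member was called when limma tested for a difference of more than 1.5-fold.

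The order of transcript levels was nearly the same in both seasons. In summer it ran KHDC3L (2135 ± 173 TPM), NLRP8 (1018 ± 158), PADI6 (803 ± 65.7), NLRP5 (494 ± 29.2), TLE6 (421 ± 43.5), NLRP9 (417 ± 36.2), NLRP14 (339 ± 37.2), OOEP (204 ± 13.9) and NLRP13 (146 ± 28.8). In winter it ran KHDC3L (971 ± 327 TPM), NLRP8 (547 ± 215), PADI6 (366 ± 115), NLRP5 (224 ± 83.3), NLRP9 (208 ± 67.5), TLE6 (200.2 ± 68.3), NLRP14 (164 ± 45.3), OOEP (90.9 ± 38.0) and NLRP13 (85.6 ± 36.3), so only TLE6 and NLRP9 exchanged places. Those neighbours did not differ beyond their spread, TLE6 being above NLRP9 in 2 of 4 summer libraries and NLRP9 above TLE6 in 2 of 4 winter libraries. OOEP and NLRP13 were as close in winter, where OOEP was the higher in 2 of 4 libraries, but not in summer, where OOEP was higher in all 4. KHDC3L, NLRP8, PADI6 and NLRP5 kept this order in all 4 libraries of each season.

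The members varied more among winter libraries than among summer libraries. The coefficient of variation, the SD as a percent of the mean, was 5.90 to 19.8% in summer and 27.7 to 42.4% in winter, with NLRP13 at the upper end in both. Winter B was the highest and winter E the lowest winter library for all 9 genes, whereas the lowest summer library was A for 5 members and B, C or E for the others. Summed over the 9 genes, member transcripts made up 0.598 ± 0.0306% of TPM in summer and 0.286 ± 0.0962% in winter. The sum in winter B (0.410%) was 2.29 times that in winter E (0.179%), a range within winter as wide as the 2.09-fold distance between the season means.

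Of the ratios between members within a library, those with NLRP13 varied most over the 8 libraries. NLRP5 stood at 2.43 ± 0.0320 times OOEP in summer and 2.50 ± 0.384 times in winter. The ratio of NLRP5 to TLE6 was 1.18 ± 0.161 in summer and 1.11 ± 0.0780 in winter, and that of KHDC3L to NLRP5 was 4.35 ± 0.556 and 4.42 ± 0.802. These 3 ratios differed between seasons by less than their spread. NLRP13 over NLRP5 ranged from 0.206 in summer E to 0.486 in winter D, and NLRP8 over NLRP13 from 4.56 in winter D to 10.6 in summer E. Of 11 ratios compared, the smallest p was that of NLRP9 over NLRP5, at 0.843 ± 0.0423 in the summer libraries and 0.936 ± 0.0721 in those of winter (exact permutation test, two-sided p = 0.0857, adjusted over the 11 ratios p = 0.629). NLRP8 over NLRP5 came next, at 2.05 ± 0.235 and 2.43 ± 0.241 (exact permutation test, two-sided p = 0.114, adjusted p = 0.629). With 4 libraries a season the design cannot give an adjusted p under 0.05 to a single ratio among 11.

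NLRP13 departed most from the common pattern. The root mean square distance between its centred log2 levels over the 8 libraries and those of the member mean was 0.35, against 0.08 for NLRP9, 0.09 for NLRP5 and at most 0.16 for the other members. Its level was low in the libraries of letter E of both seasons. Against the mean log2 level of oocyte markers, NLRP13 stood at -2.87 in summer E and -2.68 in winter E, while the other 6 libraries lay between -2.29 and -1.55. NLRP8 and NLRP13, whose differences were the smallest of the group, lie close together in the genome, but so does NLRP5, whose difference was 1.21. A link between position and difference was not tested. In the RefSeq annotation (assembly ARS-UCD2.0) NLRP8 is next to NLRP5 among protein-coding genes and NLRP13 is 2 genes from NLRP8, while OOEP and KHDC3L are also direct neighbours. NLRP9, NLRP14, TLE6 and PADI6 have no other analysed member nearby.

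**Figure D2:**
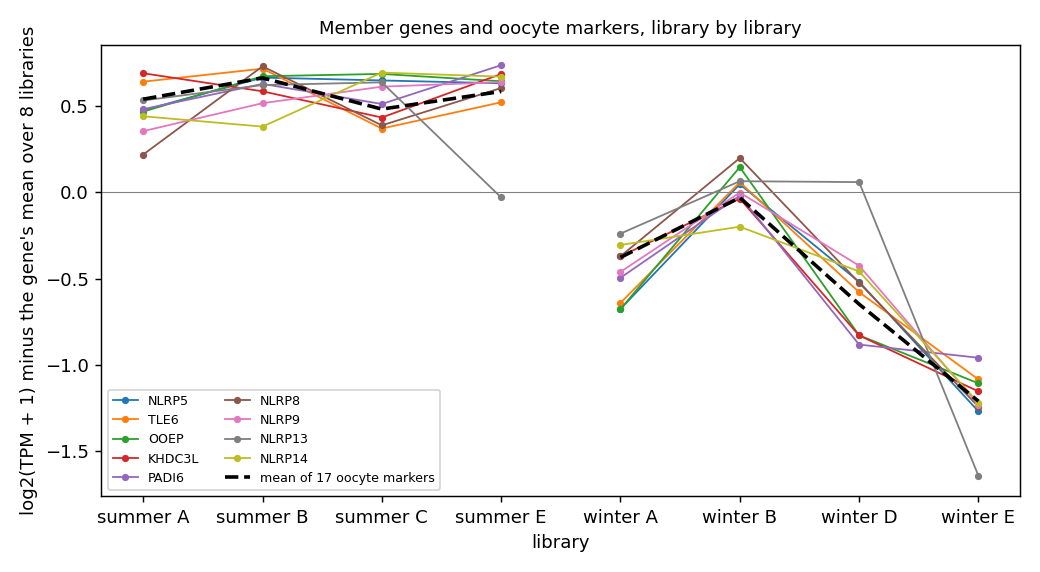
Level of each member in each library as log2(TPM + 1) minus the gene's own mean over the 8 libraries, with the mean of 17 oocyte markers as a dashed line; lines trace a gene and imply no order of the libraries. The members and the marker line lie together in every library, low in winter E and high in summer, and NLRP13 departs in summer E, winter D and winter E.

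To ask whether the members differed between seasons by more than other oocyte transcripts, they were set against 17 oocyte markers that contain no member. Each of these markers was higher in summer, 16 of 17 were called, and their median difference was 1.16, beside 1.12 for the members. The study had already reported GDF9, MOS and FGF16 of this list as higher in summer in these same data, so the markers are not an independent reference. ACCSL, the most abundant marker, averaged 3629 ± 382 TPM over summer libraries and 1657 ± 506 over winter libraries, MOS, the kinase of meiotic arrest, at 963 ± 73.4 and 439 ± 115, the egg RNA regulator ZAR1 at 1137 ± 111 and 501 ± 161, and the transcription factor FIGLA at 364 ± 48.0 and 170.1 ± 52.6. The markers made up 1.99 ± 0.138% of TPM in summer and 0.943 ± 0.318% in winter, a 2.11-fold distance. Member transcripts amounted to 0.301 ± 0.0110 of the summed marker TPM in summer and 0.304 ± 0.00836 in winter. The 8 libraries all lay between 0.288 (summer B) and 0.311 (winter E), so winter E, which had the least member RNA, held the highest ratio to the markers.

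**Figure D3:**
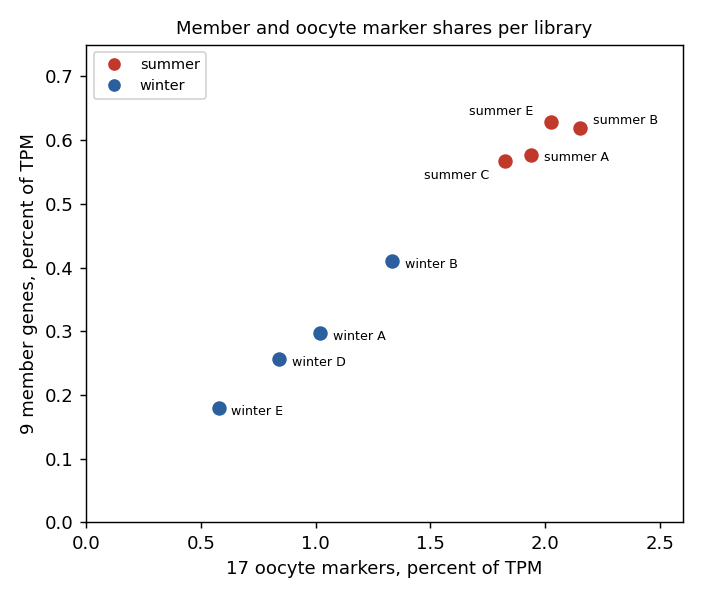
Summed share of TPM held by the 9 members (vertical axis) and by the 17 oocyte markers (horizontal axis) in each library, summer red and winter blue. The points run from winter E (0.577% markers, 0.179% members) to the summer libraries (0.567 to 0.628% members) with a member to marker ratio of 0.288 to 0.311 throughout.

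With every library scaled to the mean log2 level of the oocyte markers, the seasonal difference of the members was close to 0. The median over the 9 members was -0.01, and the values were 0.08 for NLRP5, -0.01 for TLE6, 0.10 for OOEP, 0.06 for KHDC3L, 0.04 for PADI6, -0.16 for NLRP8, -0.07 for NLRP9, -0.25 for NLRP13 and -0.04 for NLRP14. The signs of TLE6, NLRP8, NLRP9, NLRP13 and NLRP14 thus turned. No member passed an adjusted p of 0.05 in either direction (smallest adjusted p = 0.389 for NLRP13, limma). By its construction this scaling moved the median of all tested genes to -1.16, so that 0.0149% of tested genes were higher and 74% lower at an adjusted p under 0.05 (limma). The 95% interval was -0.36 to 0.51 for NLRP5 and -0.82 to 0.32 for NLRP13, so a difference of up to about that size from the other oocyte transcripts is within the error.

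**Figure D4:**
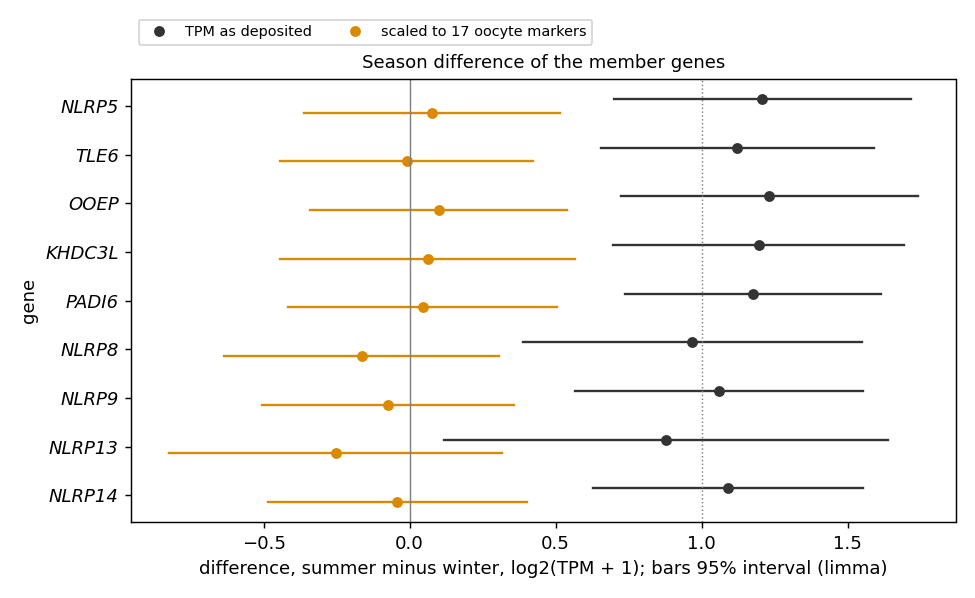
Season difference of each member (summer minus winter, log2 scale) with its 95% interval from limma, in TPM as deposited (black) and after scaling to 17 oocyte markers (orange); the dotted line marks the 2-fold limit. The black points lie between 0.88 and 1.23 and the orange points between -0.25 and 0.10, with every orange interval spanning 0.

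Markers of cumulus, granulosa, theca and stroma cells differed in the opposite direction from the members, while those of endothelial cells, leukocytes and erythrocytes were mixed. All 18 tested cumulus and granulosa markers had negative differences, and 2 were called, CYP11A1, the side-chain cleavage enzyme of steroid synthesis (-1.85), and the cadherin CDH2 (-1.37). GATM (-1.07) and the inhibin subunit gene INHA (-0.65) were not called. The markers together held 0.854 to 1.22% of TPM in the summer libraries, 1.01 to 1.19% in winter A, B and D and 3.93% in winter E. LHCGR alone of the list was at 0 in every summer library, and its winter mean of 2.10 TPM came mostly from winter E (7.90 TPM). With a cumulus and granulosa score as a covariate the median member difference was 0.67 and no member was called (adjusted p from 0.0631 for PADI6, limma). The score was itself lower in summer, so this fit cannot divide the members' difference between score and season. Of 11 tested theca and stroma markers 9 were lower in summer and none higher, among them PDGFRB (-3.21), COL3A1 (-5.01), DCN (-3.58) and COL1A1 (-1.74), and the list held 0.0209 to 0.0301% of TPM in summer and 0.0449 to 0.244% in winter. Winter B, the winter library with the most member RNA, was also the one with the most theca and stroma RNA. Of 4 tested endothelial markers CLDN5 was lower (-3.25), while TEK (0.73), KDR (0.42) and VWF (0.16) were not called. The list held 0.00249 to 0.00449% in summer and 0.00202 to 0.00404% in winter. PECAM1 and CDH5, at 0 in summer, averaged only 0.192 and 0.0296 TPM in winter. ESAM, at 0 in winter, averaged 0.108 TPM in summer. Of 5 tested leukocyte markers CD68 was lower (-1.84), CSF1R had an adjusted p of 0.0265 (limma) at 0.86, under the 2-fold limit, and CD3E (0.67), LCP1 (0.22) and CD74 (-2.81) were not called. The list held 0.00614 to 0.0106% in summer and 0.00265 to 0.0676% in winter. TYROBP, at 0 in summer, averaged only 0.552 TPM in winter. Erythrocyte markers (1 tested, not called) held 0.0710 to 0.282% in summer and 0.0534 to 0.385% in winter, with ALAS2 at 0 in all libraries. The part of any of these cell types in the members' differences was not tested.

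Known partners of the complex and the lattices were not called. Of 7 tested partner genes none was called in either direction, and the median was 0.31. UBE2D3, a ubiquitin-conjugating enzyme found in mouse lattices, averaged 1114 ± 104 TPM in summer libraries and 719.6 ± 122 in winter libraries (difference 0.64, adjusted p = 0.0152, limma), and the maintenance DNA methyltransferase DNMT1 at 167 ± 26.0 and 108 ± 14.3 (0.62, adjusted p = 0.0181, limma), both under the 2-fold limit. The tubulin gene TUBB2B lay the other way (-0.72, adjusted p = 0.0480, limma), and the actin regulator CFL1, the most abundant partner over both seasons, differed by -0.10 (adjusted p = 0.660, limma). Against the oocyte markers the partner median was -0.82. Gene family relatives of 2 members, PADI6 and TLE6, were not called either. The deiminase genes PADI1 (0.59), PADI2 (0.61) and PADI3 (0.50) were not called, with season means of 0.989 to 17.5 TPM against 366 TPM or more for PADI6. The Groucho genes TLE1 (-0.52), TLE2 (-0.25), TLE3 (-0.90) and TLE5 (-0.31) had lower means in summer and TLE4 (0.50) a higher one, and none of 5 was called.

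Other maternal effect genes were mixed. Of 17 tested, 5 rose and none fell, with a median of 0.49. The translation regulator PABPC1L rose from 17.8 ± 4.33 to 49.6 ± 8.76 TPM (1.44, adjusted p = 0.00356, limma), and the histone chaperone NPM2, which remodels sperm chromatin, from 228 ± 85.0 to 549.7 ± 77.3 TPM (1.34, adjusted p = 0.00690, limma). ZAR1 (1.22), its relative ZAR1L (1.24) and DPPA3, a protector of maternal methylation (1.10), were the others, the latter pair being named after their values were seen. The other 12 were not called, with differences from -0.41 to 0.99. Against the oocyte markers, of which ZAR1 is itself one, PABPC1L differed by 0.30, NPM2 by 0.21, ZAR1 by 0.09, ZAR1L by 0.11 and DPPA3 by -0.03. The smallest adjusted p of these 5 was 0.282, for PABPC1L (limma), and the list median was -0.64.

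Of the inflammasome and NOD-like receptor genes known mainly from somatic cells, NOD1 and NLRP1 were called. Of 16 inflammasome and NOD-like receptor genes with a row, 8 failed the filter, NLRP3, NLRP6, NLRP12, NLRC3, NLRC4, NOD2, CIITA and NAIP, and their season means were at most 0.467 TPM, against at least 85.6 TPM for the members. NOD1, a sensor of bacterial wall fragments, was higher in summer, with 114 ± 34.2 TPM beside a winter mean of 45.1 ± 14.7 (difference 1.33, adjusted p = 0.00709, limma), as was NLRP1 (31.4 ± 3.62 TPM against 14.9 ± 3.94, 1.06, adjusted p = 0.00932, limma). Against the oocyte markers these genes differed by 0.20 and -0.07. The inflammasome protease gene CASP1 was at 30.1 ± 11.0 and 16.8 ± 5.42 TPM (0.79, adjusted p = 0.0746, limma). The other 5 tested genes, PYCARD, NLRX1, NLRC5, IL1B and IL18, had season means of 2.35 to 9.13 TPM and were not called.

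**Figure D5:**
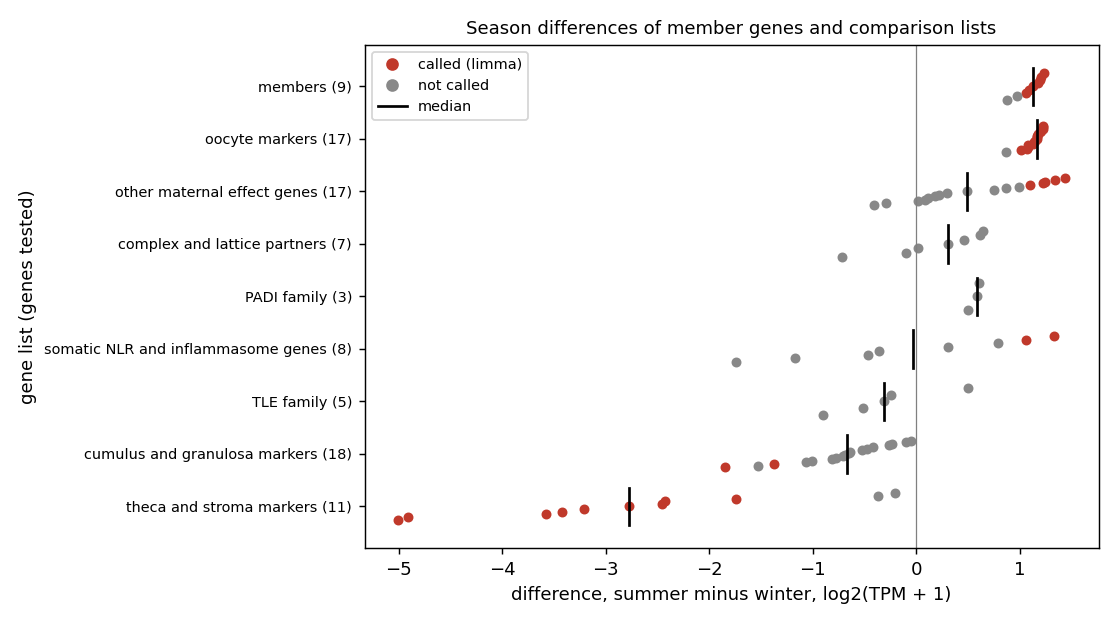
Season difference (summer minus winter, log2 scale) of each tested gene in the members and in 8 comparison lists, the number tested in brackets, called genes in red and the list median as a bar. The members (median 1.12) and the oocyte markers (1.16) form tight groups, other maternal effect genes spread from -0.41 to 1.44, and cumulus, theca and stroma markers lie below 0.

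The genes whose profile over the 8 libraries came nearest to that of the members had a like seasonal difference. Profiles were centred on the mean of all 8 libraries, so this likeness follows from the measure. Among 9236 tested genes with a symbol and a mean of at least 10 TPM, the nearest to the member mean were LIG1, a DNA ligase (1614 TPM in summer and 761 in winter, root mean square log2 distance 0.06), PPA1, an inorganic pyrophosphatase (0.06), ARHGAP25 (0.07), the spindle kinase gene AURKA (0.07) and the claudin gene CLDN10 (0.09). Nearest to NLRP5 were ELN (0.09), LIG1 (0.10), CRH (0.10), the oocyte growth factor gene GDF9 (0.10) and NRIP3 (0.11), which is about the distance of NLRP9 from NLRP5 (0.11). OOEP (0.13) and TLE6 (0.14), the partners of NLRP5 in the core, came after them.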

How the data were processed

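Oocyte RNA was captured with poly-T beads and sequenced as paired reads, so transcript amount and poly(A) tail length cannot be told apart. The deposited values are TPM, which the authors computed from trimmed, mapped reads, by their methods in CLC Genomics Workbench with trimmed-mean scaling. DESeq2, bcl2fastq and Bowtie2 2.2.2 appear beside the build ARS-UCD1.2 in the submitters' processing notes, and which tools made the table was not settled. TPM keeps no depth, so counting precision is unknown. The libraries listed 14477 to 16448 genes above 0.

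By its methods the study excluded a summer replicate and the corresponding winter replicate. Here, however, letter C has only a summer library and letter D only a winter library. The letters therefore do not settle which libraries correspond, and the main fit used no pairing. P-values measure the spread between pools. Genes with zFPKM (a z-score of log2 TPM) above -3 in all 4 libraries of a season were tested across all 13379 genes with limma 3.58.1 in R 4.3.3 (trend), fitting season alone to log2(TPM + 1) and adjusting p by Benjamini and Hochberg. The study's negative binomial test needs counts and was not used. The test was run on simulated data first. Ratios were compared by exact permutation. Members and lists were chosen with earlier results of these data known, so the lists give no independent evidence. The lists of oocyte markers and other maternal effect genes share ZAR1 and BTG4. List genes with no row under their symbol were not analysed here. From each list the 3 genes with the smallest p and the most abundant were to be named, together with every member and the 5 nearest genes. The alternatives were other pseudocounts (0.1 and 0.5), filters, scalings, weights and thresholds, a covariate, a block by letter, and each library left out. No coordinates are printed, since the reference is of another build, and no sequences were used here.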

Additional observations from a re-analysis of the deposited data

Results flagged for a closer look

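The share of TPM held by cumulus and granulosa markers in winter E was 3.93%, while the other winter libraries held 1.01 to 1.19%, so that winter E stood far from the rest of its group. It was the only one of 24 groups of 4 values examined to do so. Chance alone gives about 1 such group in 20 where groups are independent. These groups share the same libraries and the members move together, so that rate need not hold here. Winter E was also the lowest winter library for all 9 members, and its INHA level was 17265 TPM against 3204 to 3519 TPM in the other winter libraries. The part of these cells in the members' values was not tested. The fit with the cumulus and granulosa score cannot measure it, since the score was itself lower in summer.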

How the results depend on the processing

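The number of members called lower in summer was 0 under every alternative. The number called higher (7) ranged from 3 to 8 when each library was left out in turn, the 3 being without winter E. It was 0 after scaling to the oocyte markers (member median -0.010; TLE6 -0.010, NLRP8 -0.16, NLRP9 -0.074, NLRP13 -0.25 and NLRP14 -0.042), 0 when limma tested for more than a 1.5-fold change, 0 with the cumulus and granulosa score as a covariate (median 0.67) and 4 with the letter as a replicate block, which kept NLRP5, OOEP, TLE6 and PADI6 and not KHDC3L (adjusted p = 0.0561, limma), NLRP9 (0.0579) and NLRP14 (0.0575). Quantile normalization gave 6, without NLRP9 (0.98), and the pseudocounts, filters, median-ratio scaling, moderation without trend, array weights and dropping the fold limit gave 7 or 8. With each library left out, the member median ranged from 0.95 to 1.33, the median relative to the oocyte markers from -0.02 to 0.05, and the difference in the members' share of TPM (0.312 percentage points) from 0.276 to 0.353. Over all tested genes, 589 were higher and 692 lower; without winter E 271 were higher, without winter B 983, with the covariate 17 and 191 were higher and lower, with the block 179 and 296, against 1.5-fold 3 and 64, with no fold limit 1995 and 1594, and after oocyte scaling 0 and 7761. Whether libraries of the same letter came from the same cows was not settled: the correlation of their deviations from the season means was 0.05 for A, 0.14 for B and 0.20 for E, and in each case it was the highest that library had with the other season.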
